A study of Mus musculus with 7 samples.

Results

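A set of 40 genes encodes the glutamate receptor subunits, their auxiliary proteins and the scaffolds that hold them at the postsynaptic side of excitatory synapses. They were picked by gene symbol for these roles and not for a measured value: 4 AMPA, 7 NMDA, 5 kainate and 1 delta receptor subunits, 6 metabotropic receptors, 8 auxiliary proteins and 9 scaffolds. All 40 were among the 23413 gene symbols counted, and all 40 passed the filter on low counts, which kept 15881 genes for testing.

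Glutamate released by one neuron opens AMPA receptors on the next, whose current relieves the magnesium block of NMDA receptors and lets calcium enter. That calcium starts long-term potentiation, in which more AMPA receptors are held at the synapse by TARP auxiliary proteins bound to the PSD-95 family of scaffolds. Kainate receptors and the G-protein coupled metabotropic receptors tune release and excitability, and Shank and Homer proteins tie both receptor classes to the deeper scaffold and to calcium stores.

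Brain cortex RNA was sequenced from APP/PS1 mice, which carry transgenes of familial Alzheimer's disease under the mouse prion protein promoter. Both groups carried the transgenes and no wild-type cortex was compared. From 6 months of age the mice were housed singly and received either the control diet (CD, named SD in the sample labels) or the ketogenic diet (KD) for 7 months, and tissue was taken at 13 months. Energy in CD came from carbohydrate (74%), protein (10%) and fat (16%), and in KD from fat (90%), protein (10%) and less than 0.5% carbohydrate. Each library is 1 mouse, with 4 in CD and 3 in KD, and the comparison asks whether the diet changed the transcripts of the excitatory synapse. Below, values are given in the order of replicates 1 to 4 for CD and 1 to 3 for KD, as CPM, the counts scaled to a common library size after TMM normalization.

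The libraries held 22272883 to 36614954 counts, of which the 40 genes took 0.583% to 0.707%. Of the 40, 36 had at least 100 counts in every library, and the least counted was Grin3b, with 6 to 25 counts. Slc17a7, a marker of cortical excitatory neurons, was present in every library. CD replicate 4 and KD replicate 3 stood apart from the other 5 on the first principal component (34.95% of the variance), at 39.5 and 46.7 against -25.2 to 2.39. The summed level of 8 excitatory cortical markers was 814 and 815 CPM in these libraries and 1054 to 1202 CPM in the others. No marker was at 0 and 2 of 8 were higher in the KD mean. In CD replicate 4, Slc17a7 (429 CPM), Rorb and Foxp2 were the lowest of the 7 libraries, while Neurod6 (158 CPM) and Fezf2 (17.9 CPM) were the highest. In KD replicate 3, Slc17a7 (591 CPM) lay within the range of the other 5, and every other marker of the list lay below the other 5. The sum of 6 olfactory bulb markers was 97.1 CPM in CD replicate 4 and 64.8 CPM in KD replicate 3, against 10.6 to 18.6 CPM in the others. Of these 6 markers, 5 were highest in CD replicate 4 and Calb2 in KD replicate 3. In KD replicate 3, Calb2 and Cdhr1 made up 61.2 CPM of its sum, and Eomes, Th, Tbx21 and Doc2g lay within the range of the other 5 libraries. Of the 6, 1 was higher in the KD mean and only Eomes was at 0 in a library. KD replicate 3 also held 19.7 CPM of 6 ventral forebrain markers, where the other libraries held 0.629 to 1.27 CPM, and Lhx9 and Gabrq made up 17.9 CPM of it. All 6 were higher in the KD mean, and Lhx8, Isl1 and Nkx2-1 were at 0 in at least 1 library. The sums of 6 inhibitory neuron markers were 853 to 1020.5 CPM in CD and 735 to 842 CPM in KD. These sums did not overlap between the diets, with 2 of the 6 higher in the KD mean and none at 0. Gad1 took the largest part, at 472 to 656 CPM in CD and 403 to 448 CPM in KD. It was the single marker of the 6 whose diets did not overlap, where 4.11% of all tested genes did not overlap. The part of these markers in each result was not tested. Xist, the transcript that silences an X chromosome in female cells, was at 248 to 531 CPM in replicates 1 and 2 of both diets and at 0.310 to 3.08 CPM in CD replicates 3 and 4 and KD replicate 3. The labels do not give the sex of the mice.

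No difference between the diets was detected for any of the 40 genes. The test was the quasi-likelihood test of edgeR, adjusted by the Benjamini-Hochberg method over all tested genes. The smallest adjusted p among the 40 by this edgeR test was 0.979, and 0 of all 15881 genes (0%) passed an adjusted p under 0.05. At a raw p under 0.05, 1 of the 40 genes was called, Grm4, which was lower in KD, where 3.19% of all tested genes were called (1.66% higher and 1.52% lower). DESeq2 called 2 of the 40 at the same raw p, Grm4 and Grm2, where it called 3.7% of all tested genes, and none after adjustment. Fitted differences were above 0 in KD for 28 genes and below 0 for 12, where 49% of all tested genes were above 0. The median log2 difference was 0.070 over the 40 genes and -0.0033 over all tested genes, and single genes ran from -0.90 for Grm4 to 0.41 for Grin3a. The 95% interval of the difference lay within a 2-fold change either way for 36 of the 40 genes and within 1.5-fold for 25. In whole cortex, fewer cells of a type and less RNA per cell cannot be told apart.

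**Figure D1:**
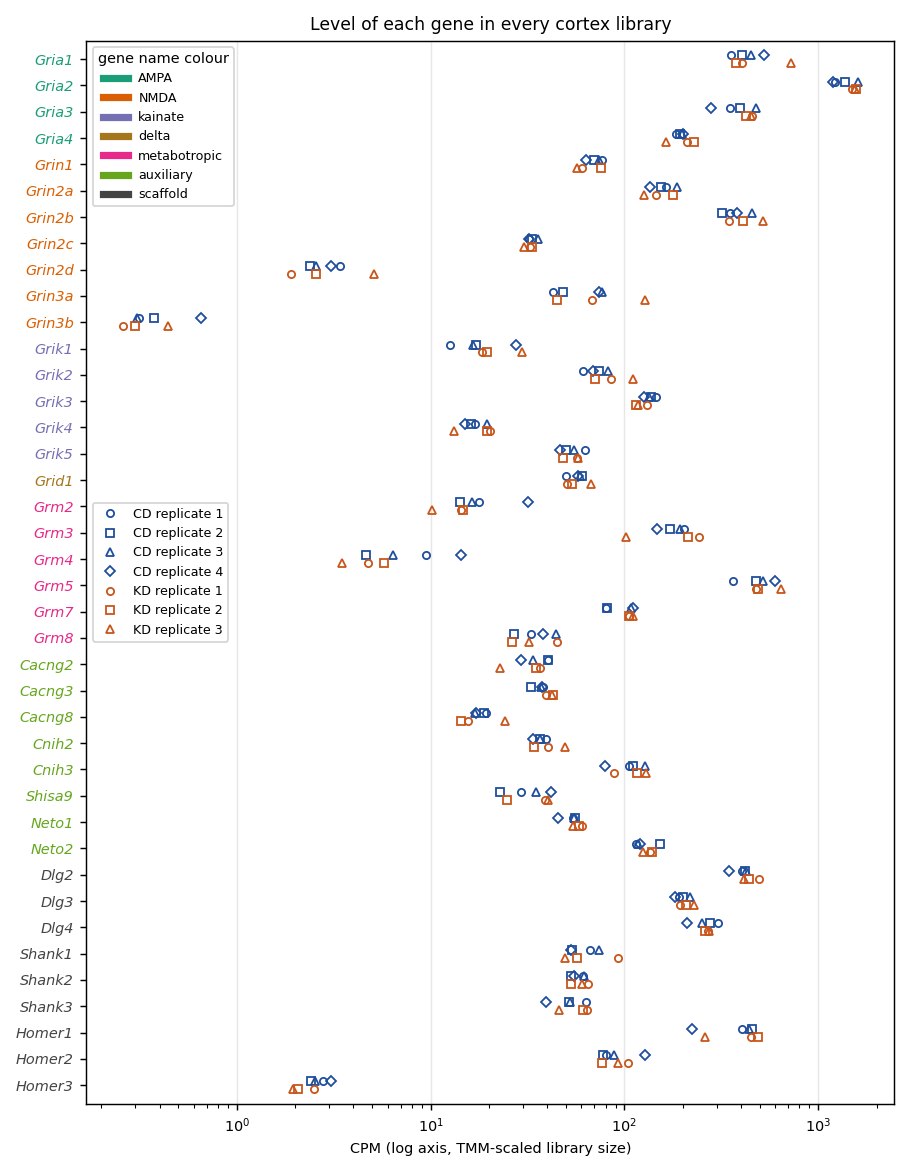
Level of each of the 40 genes in the 4 CD and 3 KD libraries, in CPM on a log axis, with 1 marker per library and gene names coloured by role. The diets overlap for every gene except Cacng3, and CD replicate 4 and KD replicate 3 sit together at the low end for Homer1 and at the high end for Grik1.

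**Figure D2:**
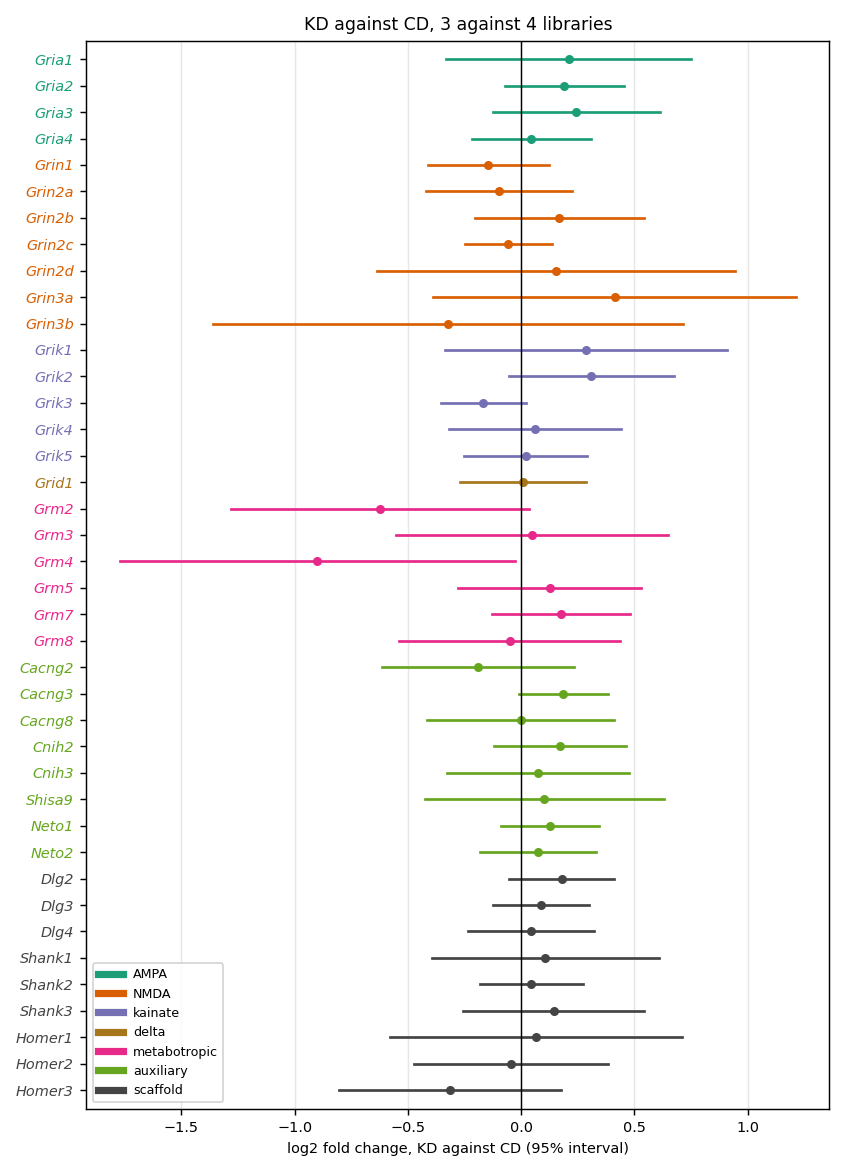
Fitted log2 difference of KD from CD for each gene (point) with its 95% interval (line), from 3 KD and 4 CD libraries. Only the interval of Grm4 lies wholly on one side of 0, from -1.77 to -0.027.

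The excess of genes above 0 depended most on KD replicate 3. Without KD replicate 3, 20 of the 40 genes were higher in KD and the median log2 difference was 0.00016. Without CD replicate 4 the values were 24 genes and 0.041, and without both libraries 22 genes and 0.016. Without KD replicate 1 they were 23 genes and 0.042, and without CD replicate 3 29 genes and 0.12. KD replicate 3 was the highest or the lowest of the 7 libraries for 24 of the 40 genes (60%), where it was so for 40.3% of all tested genes. CD replicate 4 was at an end for 17 genes (42.5%, and 38.1% of all tested genes), and the other libraries for 4 to 12. Both libraries lay on the same side of the other 5 for 14 of the 40 genes (35%), where 19.1% of all tested genes did so. They were above the rest for Gria1, Grin3b, Grik1, Grm5, Grm7 and Shisa9. They were below it for Grin2a, Grik4, Grm3, Cacng2, Neto1, Shank1, Shank3 and Homer1.

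**Figure D3:**
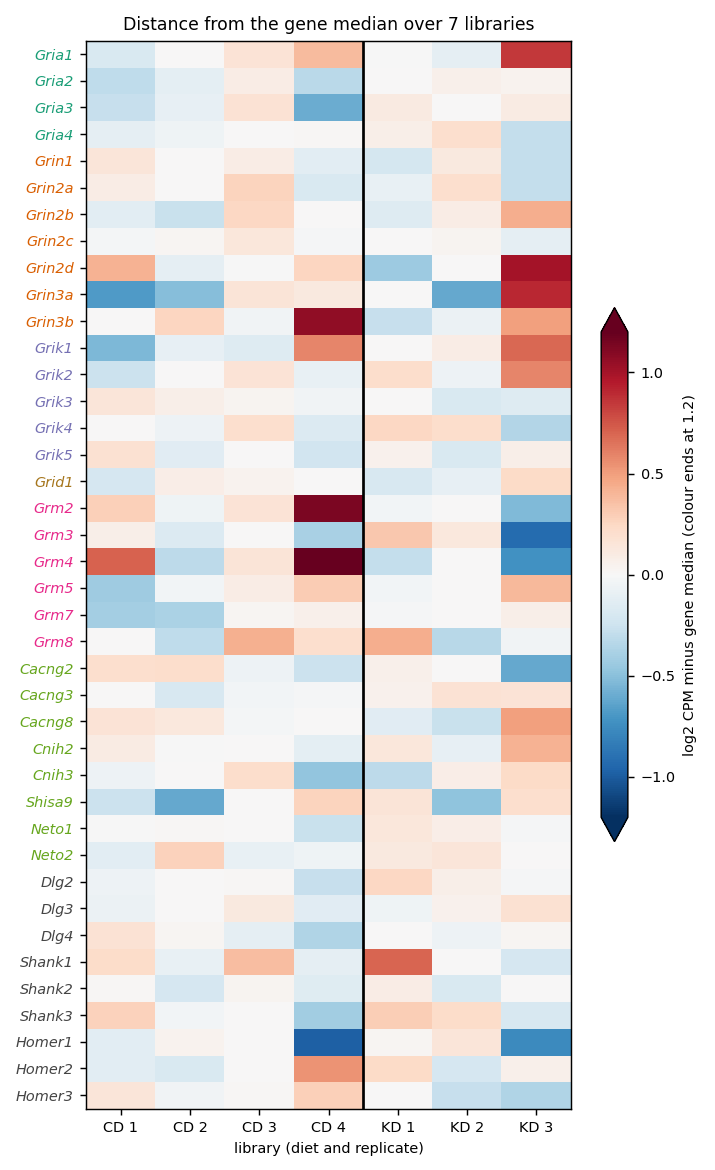
Distance of each library from the median of the 7 libraries, in log2 CPM, for each gene, with CD left and KD right of the line. The strongest colours stand in CD replicate 4 and KD replicate 3, which share their direction for Grik1, Grm3 and Homer1 and differ for Grm2 and Grm4.

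**Figure D4:**
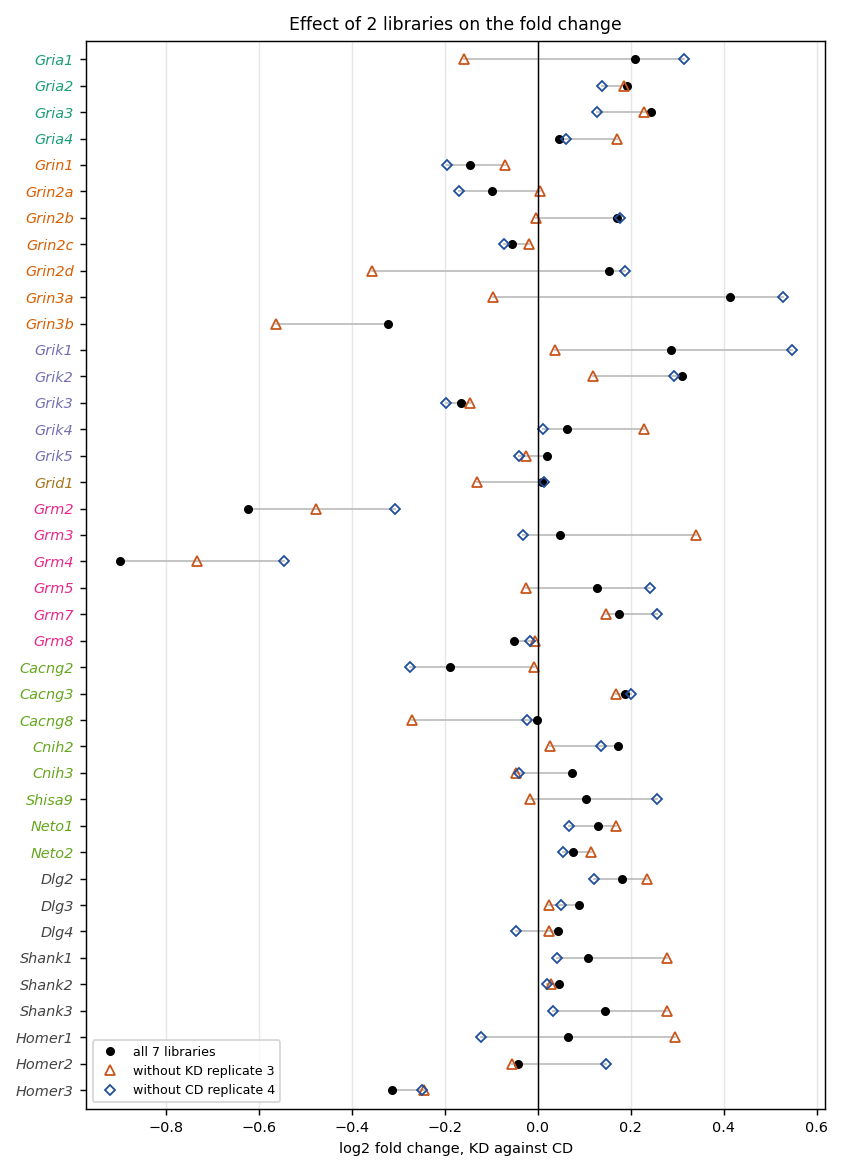
Fitted log2 difference of KD from CD for each gene with all 7 libraries (dots), without KD replicate 3 (triangles) and without CD replicate 4 (diamonds). Gria1 moves from 0.21 to -0.16 and Grin3a from 0.41 to -0.096 without KD replicate 3.

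AMPA receptors carry the fast excitatory current, and their subunits GluA1 to GluA4 are encoded by Gria1 to Gria4. Which subunits are present sets whether the channel passes calcium, through 1 codon in the pore loop. The genome encodes glutamine there in all 4 genes, and the Gria2 transcript is edited so that arginine is made, which blocks calcium. The kainate receptor genes Grik1 and Grik2 carry the same editable site. The coding sequence around this codon is shown for these 6 genes, 63 bases each, from the GENCODE M21 transcripts of mm10, with the codon in capitals.
Gria1: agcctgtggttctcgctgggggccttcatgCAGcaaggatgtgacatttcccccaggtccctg
Gria2: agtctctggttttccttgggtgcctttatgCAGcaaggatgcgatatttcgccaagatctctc
Gria3: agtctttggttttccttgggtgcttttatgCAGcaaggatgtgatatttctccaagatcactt
Gria4: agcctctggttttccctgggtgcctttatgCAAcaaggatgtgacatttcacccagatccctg
Grik1: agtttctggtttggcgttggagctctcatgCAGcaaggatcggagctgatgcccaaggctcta
Grik2: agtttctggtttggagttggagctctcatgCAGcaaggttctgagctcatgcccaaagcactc
The codon lies at chr11:57243094-57243096 (plus strand) in Gria1, chr3:80706911-80706913 (minus) in Gria2 and chrX:41610265-41610267 (plus) in Gria3. In Gria4 it lies at chr9:4464137-4464139 (minus), in Grik1 at chr16:87940542-87940544 (minus) and in Grik2 at chr10:49244329-49244331 (minus), always inside a coding exon. Of the 63 bases, 57 in Gria3, 54 in Gria4, 49 in Gria1, 42 in Grik1 and 41 in Grik2 were the same as in Gria2. The codon is the same in 5 of the 6 genes, and Gria4 uses the other glutamine codon. The counts are sums over a gene, so they give how much Gria2 was transcribed and not what share of it was edited.

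All 4 AMPA subunit genes had a fitted difference above 0, with a median of 0.20 on the log2 scale, and none passed the test. Gria2, the subunit gene that the editing concerns, was at 1218, 1379.5, 1598 and 1197 CPM in CD and 1501, 1568 and 1547 CPM in KD. The KD values lay together, and the highest CD library, replicate 3, was above all of them. The log2 difference was 0.19 ± 0.11 (SE), with a 95% interval of -0.072 to 0.45 and a raw p of 0.134 in edgeR's quasi-likelihood test. Without CD replicate 3 it was 0.28 (raw p 0.0216 in the same test), and the adjusted p was then 0.674. In that fit 7.38% of all tested genes had a raw p under 0.05, against 3.19% with all libraries. Without CD replicate 4 the log2 difference of Gria2 was 0.14.

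Gria1, whose subunit is added to synapses early in potentiation, was at 354, 403, 452 and 524 CPM in CD and 403, 375 and 725 CPM in KD. The highest KD and the highest CD library were KD replicate 3 and CD replicate 4, and the other KD values lay inside the CD range. The log2 difference was 0.21 ± 0.24 (SE) with all libraries, -0.16 without KD replicate 3 and -0.049 without both libraries that stood apart.

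Gria3, an X-linked gene, was at 349, 395, 478 and 281 CPM in CD and 458, 424 and 452 CPM in KD, with the lowest value in CD replicate 4 and the highest in CD replicate 3. The log2 difference of Gria3 was 0.24 ± 0.16 (SE) (raw p 0.168 in edgeR's quasi-likelihood test), and 0.13 without CD replicate 4. Without CD replicate 3 it was 0.38 (raw p 0.0223 in the same test, adjusted p 0.674), in the fit where 7.38% of all tested genes had a raw p under 0.05.

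Gria4 was the steadiest of the 4 in CD, at 185, 192, 199 and 201 CPM in CD and 209.6, 229 and 164 CPM in KD, and its log2 difference was 0.045 ± 0.11 (SE).

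Scaled to merged exon length, Gria2 was the most abundant of the 40 genes, at 86.7 ± 11.9 CPM per kb in CD and 99.0 ± 2.21 in KD (mean ± SD). Gria1 followed, at 71.7 ± 12.0 CPM per kb in CD and 82.9 ± 32.3 in KD, a difference within the spread of the KD libraries. As shares of the 4 AMPA genes per kb, Gria2 took 34.1% to 41.7%, Gria1 25.6% to 41.2%, Gria3 12.7% to 19.1% and Gria4 8.91% to 15.0%. Gria2 had the larger share than Gria1 in 5 libraries. In CD replicate 4 and KD replicate 3 the order was turned, with Gria1 at 38.7% and 41.2% and Gria2 at 34.4% and 34.1%.

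NMDA receptors are the coincidence detectors of potentiation and combine the obligatory GluN1 subunit (Grin1) with GluN2 subunits (Grin2a to Grin2d) or the glycine-binding GluN3 subunits (Grin3a, Grin3b). Their 7 genes split into 3 above 0 and 4 below, with a median log2 difference of -0.056. Grin1 was at 77.0, 69.7, 74.0 and 63.7 CPM in CD and 60.3, 75.4 and 57.2 CPM in KD, so the lowest values were KD replicates 1 and 3 while KD replicate 2 sat among the higher CD libraries. That gave a log2 difference of -0.15 ± 0.12 (SE), with a raw p of 0.247 in edgeR's quasi-likelihood test.

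Grin2b, the GluN2 gene that predominates early in life and persists in forebrain, was at 350.1, 318, 456 and 383 CPM in CD and 345, 407 and 518 CPM in KD. Grin2a, whose product gives faster currents and gains ground with maturation, was at 164, 155, 186 and 136 CPM in CD and 145, 177 and 127 CPM in KD. KD replicate 3 held the highest Grin2b and the lowest Grin2a value of the 7 libraries. The log2 differences were 0.17 ± 0.16 (SE) and -0.099 ± 0.14 (SE), and without KD replicate 3 they were -0.0050 and 0.0053.

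Grin2c varied least of all 40 genes, at 32.1, 33.3, 35.8 and 32.2 CPM in CD and 32.6, 33.3 and 30.3 CPM in KD, and its log2 difference was -0.056 ± 0.084 (SE). Grin2d was at 3.43, 2.39, 2.57 and 3.08 CPM in CD and 1.90, 2.57 and 5.13 CPM in KD, with both the lowest and the highest value in KD. Grin3a, whose subunit lowers calcium flow through the receptor, was at 42.8, 48.1, 76.5 and 74.3 CPM in CD and 68.5, 44.9 and 128 CPM in KD. One KD library was above all CD libraries and another near the lowest CD value, so its log2 difference, the highest of the 40, had an interval of -0.39 to 1.21. Without KD replicate 3 it was -0.096.

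Grin3b, whose expression is best known from motor neurons, was close to the limit of counting at 0.259 to 0.658 CPM, where 3 counts correspond to 0.0789 to 0.133 CPM. It overlaps Tmem259 on the opposite strand, and whether the counting used strand is not given in the sources used here.

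Per kb, Grin2b took 32.3% to 40.8% of the NMDA receptor genes, Grin2a 13.8% to 22.1%, Grin1 11.5% to 19.0% and Grin2c 11.8% to 16.7%.

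Kainate receptors shape release and slow excitation through GluK1 to GluK3 (Grik1 to Grik3), which form channels alone, and GluK4 and GluK5 (Grik4, Grik5), which need one of the former. Of these 5 genes, 4 had a difference above 0 and 1 below, and none passed the test. Grik3, at chr4:125490700-125714173 on the plus strand, was at 145, 138, 134 and 127 CPM in CD and 131, 115 and 117 CPM in KD. A pair of KD libraries was below every CD library, and KD replicate 1 fell between CD replicates 3 and 4. The log2 difference was -0.17 ± 0.082 (SE), with an interval of -0.35 to 0.022 and a raw p of 0.0761 in edgeR's quasi-likelihood test.

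Grik2, which holds the editable codon shown above, was at 61.4, 73.6, 82.3 and 69.2 CPM in CD and 85.3, 70.3 and 111 CPM in KD, and its log2 difference of 0.31 ± 0.16 (SE) had a raw p of 0.0864 in the same test. KD replicate 2 lay within the CD range, KD replicate 3 was the highest of all, and without that library the log2 difference was 0.12.

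Grik1 was at 12.6, 17.1, 16.5 and 27.6 CPM in CD and 18.4, 19.5 and 29.7 CPM in KD, where CD replicate 4 and KD replicate 3 exceeded every other library. Its log2 difference was 0.29 ± 0.27 (SE), 0.036 without KD replicate 3 and 0.55 without CD replicate 4 (raw p 0.0320 in edgeR's quasi-likelihood test, adjusted p 0.9746).

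Grik4 and Grik5 differed by 0.063 ± 0.17 (SE) and 0.020 ± 0.12 (SE) on the log2 scale. Per kb, Grik3 took 33.4% to 43.0% of the kainate receptor genes and Grik5 25.7% to 32.1%. Grid1, encoding the delta receptor GluD1, which binds cerebellin across the cleft and organises synapses, was at 49.9, 60.8, 58.9 and 57.4 CPM in CD and 50.3, 53.5 and 67.5 CPM in KD and differed by 0.0083 ± 0.12 (SE).

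Among the metabotropic receptors, both genes with the lowest fitted differences of all 40 were found, Grm4 and Grm2. Grm4, at chr17:27422387-27521403 on the minus strand, encodes mGlu4, a group III receptor that lowers glutamate release. It was at 9.43, 4.65, 6.41 and 14.4 CPM in CD and 4.75, 5.78 and 3.49 CPM in KD, or 79 to 548 counts. The highest values were CD replicates 4 and 1, and the other CD libraries lay within or close to the KD range, so the diets overlapped. Its log2 difference was -0.90 ± 0.38 (SE), with an interval of -1.77 to -0.027, a raw p of 0.0446 and an adjusted p of 0.979 in edgeR's quasi-likelihood test. The raw p was 0.0851 without CD replicate 1, 0.106 without CD replicate 4, 0.0914 without KD replicate 1 and 0.137 without KD replicate 3 in the same test. It was 0.0126 without CD replicate 2, 0.0386 without CD replicate 3 and 0.0469 without KD replicate 2, with log2 differences of -1.11, -1.02 and -1.08. In these fits 2.13%, 7.38% and 4.56% of all tested genes had a raw p under 0.05. The smallest adjusted p of Grm4 leaving out 1 library was 0.674 in that test. With Xist as a covariate the raw p was 0.0636 in that test. Without both libraries that stood apart, the log2 difference was -0.37 (raw p 0.245 in the same test).

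Grm2, a group II receptor gene at chr9:106643095-106656082 on the minus strand, was at 17.9, 14.2, 16.4 and 31.97 CPM in CD and 14.3, 14.6 and 10.1 CPM in KD. CD replicate 4 was far above the other libraries and KD replicate 3 was the lowest, while the other 5 lay between 14.2 and 17.9 CPM. Its log2 difference was -0.62 ± 0.29 (SE) (raw p 0.0601 in edgeR's quasi-likelihood test), and -0.15 without these 2 libraries.

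CD replicate 4, which held the highest Grm4 and Grm2, also held the highest level of 5 of the 6 olfactory bulb markers. KD replicate 3 held the lowest Grm4 and Grm2, and of those markers only Calb2 and Cdhr1 were raised there. The part of the markers was not tested.

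Grm3, the other group II gene, which astrocytes also express, and Grm5, the main group I receptor of cortex, which couples to calcium release, were the most abundant of the 6 per kb. Grm3 was at 203, 173, 193 and 148 CPM in CD and 242, 212 and 102 CPM in KD, with KD replicate 3 the lowest and CD replicate 4 the next. Its log2 difference was 0.048 ± 0.26 (SE), and 0.34 without KD replicate 3 (raw p 0.0380 in edgeR's quasi-likelihood test, adjusted p 0.998). Grm5 was at 363, 476, 519 and 601 CPM in CD and 476, 488 and 640.2 CPM in KD, and there the same libraries were the highest.

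Grm5 differed by 0.13 ± 0.18 (SE) on the log2 scale, by -0.026 without KD replicate 3 and by 0.094 without both. Grm3 differed by 0.26 without both (raw p 0.0334 in edgeR's quasi-likelihood test, adjusted p 0.999). Per kb, Grm3 held the largest share of the metabotropic genes in 5 libraries, from 44.9% to 53.6%. In CD replicate 4 and KD replicate 3 Grm5 held it instead, with 42.2% and 51.8%. The summed markers of astrocytes were 4754 to 5341 CPM in CD and 4240.0 to 6817 CPM in KD, with 5 of 6 higher in the KD mean, and none at 0. The lowest sum was that of KD replicate 3, where Slc1a2 and Aldh1l1 were the lowest of the 7 libraries, Slc1a3 was the highest, and Aqp4, Gja1 and Gfap lay within the range of the others. Slc1a2 alone made up 2827 CPM of that sum.

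The presynaptic group III genes Grm7 and Grm8 differed by 0.17 ± 0.13 (SE) and -0.051 ± 0.21 (SE). Grm7 was at 79.9, 81.7, 108 and 111 CPM in CD and 105, 106 and 111 CPM in KD, with the KD libraries close together between CD replicates 2 and 4 or just above. Grm8, which holds Mir592 on its own strand, ran from 26.3 to 44.7 CPM with both ends in KD.

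Auxiliary proteins escort AMPA and kainate receptors to the surface and slow their closing. Cacng3, which encodes the TARP gamma-3, was the one gene of the 40 (2.5%) whose diets did not overlap, where 4.11% of all tested genes did not overlap and 2.05% had every KD library higher. It lies at chr7:122670492-122769393 on the plus strand and was at 37.8, 33.2, 37.05 and 37.5 CPM in CD and 39.2, 42.7 and 42.4 CPM in KD. The lowest KD library was above the highest CD library by little, and CD replicate 2 was the lowest of all. The fitted log2 difference was 0.19 ± 0.085 (SE), with an interval of -0.0080 to 0.38, a raw p of 0.0581 and an adjusted p of 0.979 in edgeR's quasi-likelihood test.

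Cacng2, encoding stargazin, was at 40.4, 40.5, 33.6 and 29.4 CPM in CD and 36.6, 35.05 and 22.9 CPM in KD, and its log2 difference of -0.19 ± 0.18 (SE) was -0.0073 without KD replicate 3. Cacng8, encoding TARP gamma-8, differed by -0.0012 ± 0.18 (SE), and its KD values held both the lowest and the highest of the 7 libraries, 14.3 and 24.2 CPM.

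The cornichon genes Cnih2 and Cnih3 differed by 0.17 ± 0.13 (SE) and 0.074 ± 0.18 (SE). Cnih3 was the more abundant per kb, at 38.6 ± 7.24 CPM per kb in CD and 40.6 ± 7.54 in KD, and Cnih2 overlaps Yif1a on the opposite strand. Cnih3 was the auxiliary gene with the highest level per kb, at 106, 111, 128 and 79.9 CPM in CD and 88.9, 117 and 129 CPM in KD in the single libraries, where CD replicate 4 was the lowest and KD replicate 1 the next. Shisa9, encoding CKAMP44, differed by 0.10 ± 0.23 (SE) on the log2 scale.

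Neto1 and Neto2, whose proteins accompany kainate receptors, differed by 0.13 ± 0.095 (SE) and 0.075 ± 0.11 (SE). Neto1 stayed between 45.7 and 60.5 CPM, with CD replicate 4 the lowest.

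Scaffolds of the PSD-95 family hold receptors in place through PDZ domains. Dlg4, which encodes PSD-95, was at 305, 275, 251.2 and 211 CPM in CD and 271, 260.0 and 275 CPM in KD, and the KD libraries lay inside the CD range. Its log2 difference was 0.043 ± 0.12 (SE), with an interval of -0.24 to 0.32. Dlg2, which encodes PSD-93 and is the longest gene of the set, spanning 1972.6 kb at chr7:90476672-92449247 on the plus strand, was at 403, 419, 423 and 347 CPM in CD and 497, 441 and 415 CPM in KD.

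KD replicates 1 and 2 were above every CD library for Dlg2, and KD replicate 3 fell between CD replicates 1 and 2. The log2 difference was 0.18 ± 0.10 (SE), with a raw p of 0.112 in edgeR's quasi-likelihood test. Dlg3, the X-linked gene of SAP102, had the highest mean level per kb of the scaffold genes. Its mean was 33.9 ± 2.57 CPM per kb in CD and 36.0 ± 2.93 in KD. Homer1 followed, at 31.8 ± 8.96 CPM per kb in CD and 33.3 ± 10.2 in KD. Per kb, Homer1 was above Dlg3 in replicates 1 and 2 of both diets. Dlg3 was above Homer1 by little in CD replicate 3 and clearly in CD replicate 4 and KD replicate 3. Dlg3 read 191, 201, 218 and 182 CPM in CD and 194, 209 and 229 CPM in KD. It differed by 0.089 ± 0.092 (SE), within the spread between mice.

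Shank1, Shank2 and Shank3 encode the master scaffolds below the PSD-95 layer, and SHANK3 loss in people causes an autism syndrome. Shank1 was at 66.2, 53.5, 73.7 and 52.8 CPM in CD and 92.4, 56.9 and 49.5 CPM in KD and Shank3 at 63.6, 51.6, 52.6 and 39.3 CPM in CD and 64.5, 61.1 and 45.9 CPM in KD. KD replicate 1 was the highest for both, and KD replicate 3 lay below all CD libraries for Shank1 and above only CD replicate 4 for Shank3. Their log2 differences were 0.11 ± 0.22 (SE) and 0.14 ± 0.17 (SE), and that of Shank2, which varied little, was 0.044 ± 0.10 (SE).

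Homer proteins link group I metabotropic receptors to Shank and to calcium stores. Homer1 was at 404, 455, 441 and 223 CPM in CD and 449, 486 and 259.6 CPM in KD. CD replicate 4 and KD replicate 3 held 223 and 259.6 CPM, where no other library fell below 404 CPM, and the log2 difference was 0.066 ± 0.28 (SE). Without both it was 0.11. The counts of Homer1 add its long forms and the short activity-induced form, which were not told apart.

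Homer2 differed by -0.044 ± 0.19 (SE). Homer3, at 2.77, 2.43, 2.54 and 3.05 CPM in CD and 2.50, 2.07 and 1.95 CPM in KD (44 to 116 counts), differed by -0.31 ± 0.21 (SE), with a raw p of 0.181 in edgeR's quasi-likelihood test. KD replicates 2 and 3 were below every CD library and KD replicate 1 was not. It overlaps Ddx49 on the opposite strand.

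Ratios of counts within a library do not depend on library size, and 8 of them were compared by an exact permutation test over 35 arrangements of the mice, two-sided, whose smallest possible p is 0.0571. None had an exact permutation p under 0.05, which this design cannot reach, the diets overlapped in all 8, and all Benjamini-Hochberg adjusted values were 0.8. Gria2 to Grin1, which sets AMPA against NMDA receptor transcripts, was 19.0 ± 2.41 (SD, n = 4) in CD and 24.3 ± 3.19 (SD, n = 3) in KD (exact permutation p = 0.114). KD replicates 1 and 3 were above every CD library, while KD replicate 2 was below CD replicate 3. The difference of the means was larger than either SD, which is not a test of it, and this ratio had the smallest exact permutation p of the 8. On the log2 scale the ratio differed by 0.35, and by 0.27 without CD replicate 4 and KD replicate 3. Grin2a to Grin2b, whose rise marks the maturing of NMDA receptors, was 0.430 ± 0.0592 (SD, n = 4) in CD and 0.367 ± 0.106 (SD, n = 3) in KD (exact permutation p = 0.457). KD replicate 3 gave 0.244, CD replicate 4 0.356 and the other 5 from 0.409 to 0.486. The log2 difference of this ratio was -0.27, and -0.083 without both. Gria1 to Gria2, which bears on calcium-permeable AMPA receptors, was 0.326 ± 0.0747 (SD, n = 4) in CD and 0.325 ± 0.125 (SD, n = 3) in KD (exact permutation p = 0.743). Its values in CD replicate 4 and KD replicate 3 were 0.438 and 0.469, and in the others 0.239 to 0.292, and its log2 difference of -0.042 was -0.19 without both.

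Grin1 to the sum of Grin2a to Grin2d was 0.125 ± 0.0156 (SD, n = 4) in CD and 0.107 ± 0.0200 (SD, n = 3) in KD (exact permutation p = 0.286). For Dlg4 to Dlg2 the ratio was 0.654 ± 0.0742 (SD, n = 4) in CD and 0.599 ± 0.0585 (SD, n = 3) in KD (exact permutation p = 0.343). The exact permutation p was 0.629 for Gria3 to Gria2, 0.743 for Shank1 to Shank3 and 0.800 for Grm3 to Grm5. Gria3 to Gria2 was the tightest of the receptor ratios in KD, at 0.276 ± 0.0286 (SD, n = 4) in CD and 0.289 ± 0.0176 (SD, n = 3) in KD.

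**Figure D5:**
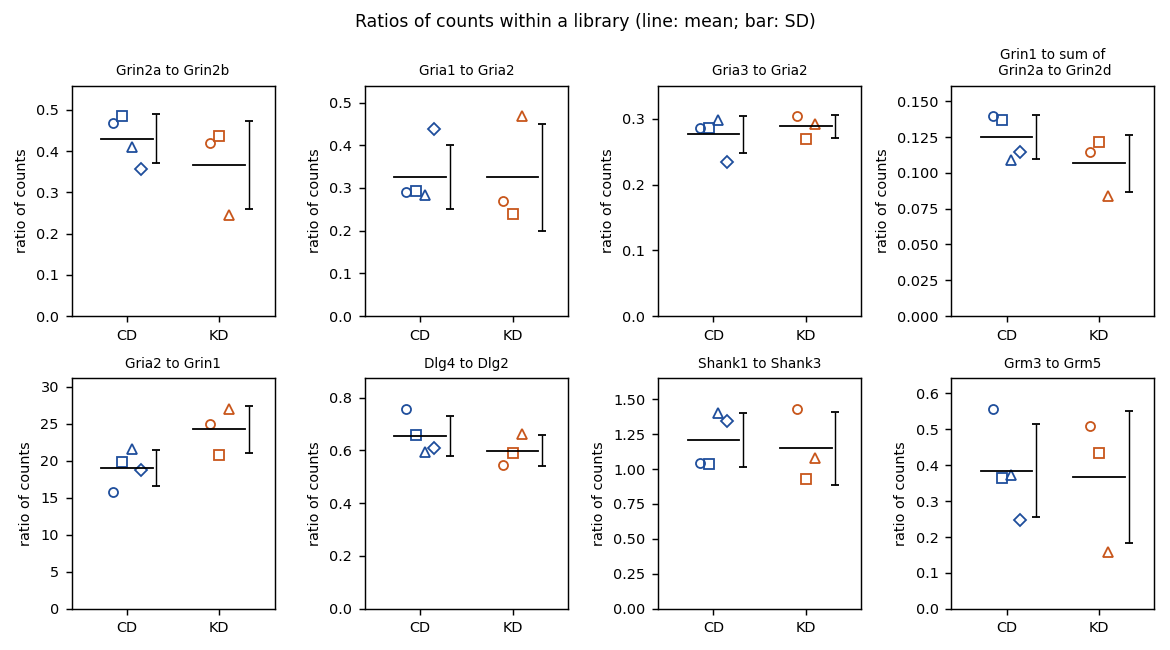
The 8 ratios of counts in each of the 4 CD and 3 KD libraries (1 marker per library, axes from 0), with the group mean as a line and the SD as a bar. The diets overlap in every panel, and KD replicate 3 (triangle) has the lowest Grin2a to Grin2b value and the highest Gria1 to Gria2 value.

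With all 7 libraries the highest library was 1.63 times the lowest at the median, where all tested genes had 1.52 times, and 9 genes exceeded 2 times. These were Gria1, Grin2d, Grin3a, Grin3b, Grik1, Grm2, Grm3, Grm4 and Homer1, and the same count was not taken over all tested genes. The median coefficient of variation was 14.4% in CD and 17.3% in KD, against 13.7% and 13.1% over all tested genes. All 9 genes had CD replicate 4 or KD replicate 3 at their highest or lowest value. Without these libraries, the highest of the other 5 was 1.30 times the lowest at the median of the 40 genes and 1.34 times at that of all tested genes. Grm4 was then the single gene of the 40 over 2 times, where 2783 of all 15881 tested genes were. The median coefficient of variation was then 10.3% in the 3 CD and 7.37% in the 2 KD libraries, against 11.5% and 8.66% over all tested genes. The genes have a median span of 116.6 kb, from 5.7 kb (Cnih2) to 1972.6 kb (Dlg2), and 24 exceed 100 kb. Of the 40, 9 lie on chromosome 7 and 2, Gria3 and Dlg3, on the X chromosome. Spans and chromosomes were not compared with those of all tested genes.

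Other genes of the excitatory synapse, from a list of receptor subunits, AMPA receptor assembly factors, trafficking proteins, density scaffolds, adhesion proteins and glutamate supply, likewise had none past the same test. Of 48 counted, 46 were tested, 23 were above 0 and 23 below, the median log2 difference was 0.0085, and none had a raw p under 0.05, with edgeR or with DESeq2. Above 0, with one of the smallest p, was the adhesion protein gene Lrrtm4, at 0.25 ± 0.13 (SE) (raw p 0.0992 in edgeR's quasi-likelihood test). Below 0 with the smallest p were Iqsec1, an Arf exchange factor of the density, at -0.25 ± 0.12 (SE) (raw p 0.0653 in edgeR's quasi-likelihood test), Olfm2 at -0.35 ± 0.18 (SE) (raw p 0.0880) and Lrrc4b at -0.30 ± 0.16 (SE) (raw p 0.1005). These 4 genes each had an adjusted p of 0.979. Dlgap4, a partner of PSD-95 and Shank, was the single one of these genes whose diets did not overlap. It was at 60.6, 55.9, 56.9 and 56.4 CPM in CD and 54.99, 49.3 and 52.2 CPM in KD (log2 difference -0.14 ± 0.077 (SE)), lower in every KD library, as were 2.07% of all tested genes.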

How the data were processed

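RNA from 10 mg of frozen cortex per mouse was made into stranded total RNA libraries and read in 50-bp paired-end mode. Per the study's methods and the submitters' processing notes, the authors aligned reads to mm10 with STAR and counted reads per gene within STAR. The deposited values are raw counts per gene symbol, 1 file per mouse, neither normalized nor pooled. The annotation, tool versions and strand setting are not given in the sources used here, so overlapping genes may share reads.

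Samples were grouped by the diet in their labels. The 40 genes, the list of other synaptic genes and the tests were chosen with earlier results of these data known. The genes described in every library are the 4 above 0 and the 4 below 0 with the lowest raw p, the most abundant of each role per kb and those in the ratios, with further genes where a library stood apart, chosen after their values were seen. Of the other synaptic genes, the 3 above and the 3 below 0 with the lowest raw p were chosen, of which some are not reported here, and Dlgap4 was added after its values were seen. edgeR 4.0.16 in R 4.3.3 was run on all genes with filterByExpr, TMM factors (0.9783 to 1.038), estimateDisp, glmQLFit with robust fitting and glmQLFTest, with no covariate, and p-values were adjusted by the Benjamini-Hochberg method over 15881 genes. Standard errors are the log2 difference divided by the square root of the F statistic of this fit, and 95% intervals use its degrees of freedom. Totals of 22272883 to 36614954 counts put 3 counts at 0.0789 to 0.133 CPM, which covers counting error only. CPM per kb used merged GENCODE M21 exons. No pair of replicates agreed within sampling noise (chi-square per gene from 15.4). Alternatives were RLE and unscaled library sizes, a filter of at least 1 count, edgeR's likelihood-ratio test, DESeq2 1.42.0, Xist as a covariate, a replicate block, and fits without single libraries or without the 2 that stood apart, whose use for the spread between libraries was chosen after seeing the data, as were the sets by Xist. Figures were drawn with matplotlib 3.10.9.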

Additional observations from a re-analysis of the deposited data

Results flagged for a closer look

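In 5 of 48 sets of 4 CD values (the 40 genes and the 8 ratios), 1 library lay far from the other 3. Gaps and ranges were taken on the log2 scale, while the values in brackets below are CPM or ratios before taking log2. On the log2 scale, its gap to the nearest value took a larger part of the range than the 95% critical value of Dixon's test. Chance does so in about 1 in 20 groups. CD replicate 4 was the distant library for Neto1, where the gap took 0.919 of the range (54.6, 55.5, 54.9 and 45.7 CPM), for Homer1 with 0.836 (404, 455, 441 and 223 CPM) and for the ratio of Gria1 to Gria2 with 0.931 (0.291, 0.292, 0.283 and 0.438). CD replicate 2 was the distant library for Cacng3, with 0.843 (37.8, 33.2, 37.05 and 37.5 CPM), and for Neto2, with 0.830 (115, 152, 118 and 120.4 CPM). The KD group of 3 is too small for this test. CD replicate 4 also had the highest sum of olfactory bulb markers. Its sum of excitatory cortical markers was the lowest, at 814 CPM beside 815 CPM in KD replicate 3, though it held the highest Neurod6 and Fezf2. The part of these markers in the values above was not tested. The log2 difference of Homer1 was -0.12 without CD replicate 4, and that of Cacng3 was 0.15 without CD replicate 2.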

How the results depend on the processing

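No gene of the 40 passed an adjusted p under 0.05 under any alternative, and 16 kept the sign of their log2 difference throughout, among them Grm4, Grm2, Grik3, Cacng3, Gria2, Gria3, Dlg2 and Grik2. The other 24 changed sign somewhere, and for each the cause was not tested. The log2 differences with another sign were 0.00018 for Cacng8 with RLE factors, -0.00045 for Grid1 with the filter of at least 1 count, and -0.12 for Grm3, -0.042 for Homer1 and 0.0027 for Homer2 with Xist as a covariate. Without CD replicate 4 and KD replicate 3 they were -0.049 for Gria1, -0.31 for Grin2d, -0.082 for Grik5, -0.12 for Grid1, 0.030 for Grm8, -0.0062 for Cnih2, -0.16 for Cnih3, -0.0080 for Dlg3, -0.059 for Dlg4, 0.14 for Homer2, -0.017 for Gria3 to Gria2, 0.0091 for Shank1 to Shank3 and 0.15 for Grm3 to Grm5. In sets of libraries chosen after seeing the data, they were 0.022 for Grin2a, 0.017 for Grin2c, -0.37 for Grin2d, -0.093 for Grik5, -0.087 for Grid1, 0.24 for Grm8, -0.021 for Cnih2, -0.070 for Cnih3, -0.12 for Dlg4 and 0.19 for Homer2 in the 4 with high Xist and -0.30 for Gria4, -0.39 for Grik4, -0.75 for Grm3, 0.50 for Cacng8, -0.36 for Shank1, -0.0076 for Shank3 and -0.36 for Homer1 in the 3 with low Xist, where KD replicate 3 is the lone KD mouse and is assumed to vary like the CD pair. Leaving out 1 library at a time, they ran from -0.13 to 0.091 for Grid1, -0.27 to 0.14 for Cacng8, -0.040 to 0.10 for Grik5, -0.030 to 0.29 for Shisa9, -0.29 to 0.11 for Grm8, -0.19 to 0.34 for Grm3, -0.048 to 0.21 for Cnih3, -0.046 to 0.13 for Dlg4, -0.12 to 0.30 for Homer1, -0.15 to 0.15 for Homer2, -0.041 to 0.23 for Grik4, -0.21 to 0.28 for Shank1, -0.018 to 0.12 for Shank2, -0.061 to 0.17 for Gria4, -0.16 to 0.38 for Gria1, -0.24 to 0.0053 for Grin2a, -0.0050 to 0.30 for Grin2b, -0.36 to 0.42 for Grin2d, -0.096 to 0.70 for Grin3a, -0.026 to 0.24 for Grm5, -0.41 to 0.0040 for Grin2a to Grin2b, -0.34 to 0.15 for Gria1 to Gria2, -0.0079 to 0.12 for Gria3 to Gria2, -0.25 to 0.059 for Shank1 to Shank3 and -0.49 to 0.35 for Grm3 to Grm5. The genes of the 40 with a raw p under 0.05 numbered 1, and 2 with the likelihood-ratio test or DESeq2, 3 with Xist, 6 in the high-Xist and 5 in the low-Xist libraries, and 0 (without CD replicate 1) to 4 (without KD replicate 2) leaving out single libraries. It was 2 without CD replicate 2 and 3 without CD replicate 3. Of all tested genes, 3.19% had a raw p under 0.05 in the quasi-likelihood test, 3.12% in the likelihood-ratio test and 3.7% with DESeq2. The share was 6.96% with Xist and 9.75% in the high-Xist libraries. Without CD replicates 1, 2 and 3 the share was 1.63%, 2.13% and 7.38%, and without KD replicate 2 it was 4.56%. The counts were not tested against these shares, so a higher count is not a result about the 40 genes. Of the other synaptic genes, 0 were called in either direction. With unscaled library sizes 1 was lower, where 3.24% of all tested genes were called in either direction. With Xist 1 was higher and 4 lower, where 6.96% of all tested genes were called. In the high-Xist libraries 3 were higher and 3 lower, where 9.75% of all tested genes were called. Leaving out single libraries gave 0 to 1 higher and 0 to 2 lower, where 1.63% to 7.38% of all tested genes were called. The median log2 difference of the 40 ran from 0.00016 to 0.12 leaving out single libraries, and the number above 0 from 20 to 29.

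The labels do not say that the replicate numbers pair the mice. The deviations of same-numbered libraries correlated at 0.251, 0.195 and 0.0980. CD replicates 1 to 3 each correlated best with the KD library of their own number, a hint from the data and not from the design. From the KD side, KD replicate 2 correlated better with CD replicate 1, at 0.209, than with CD replicate 2. Replicates 1 and 2 of both diets had high Xist and replicate 3 of both had low Xist. With a replicate block, 6 of 39 genes tested had a raw p under 0.05 (Grin3a, Grik1, Grik3, Grm5, Grm7 and Cacng2) and 5.89% of all tested genes, and none passed after adjustment. Grin3b could not be tested with the block or without CD replicate 4, where it fell below the filter. Of the other synaptic genes 2 were higher and 3 lower with the block. Log2 differences of another sign with the block were -0.0048 for Grik4, -0.038 for Grik5, -0.12 for Grm3, -0.053 for Cnih3, -0.042 for Dlg4, -0.17 for Homer1, 0.14 for Homer2, 0.11 for Gria1 to Gria2 and -0.0079 for Gria3 to Gria2. The log2 difference of Grm4 was -0.52 with the block (raw p 0.117 in edgeR's quasi-likelihood test). Counts limit Grin3b, Grm4, Grin2d and Homer3 most, with under 100 in some library.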

Other observations

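In the 4 libraries with high Xist, CD replicates 1 and 2 and KD replicates 1 and 2, edgeR's quasi-likelihood test gave a raw p under 0.05 for 6 of the 40 genes, where 9.75% of all tested genes did. Their log2 differences of KD from CD were Gria2 at 0.25 (raw p 0.0268), Gria3 at 0.25 (raw p 0.0264), Gria4 at 0.22 (raw p 0.0345), Grm3 at 0.28 (raw p 0.0334), Grm7 at 0.39 (raw p 0.00170) and Cacng8 at -0.34 (raw p 0.0371). In this set of 2 mice per diet, chosen after the data were seen, all AMPA genes but Gria1 were among them, and Gria1 was at 0.044. The smallest adjusted p in this set was 0.281. In the 3 libraries with low Xist, KD replicate 3 was the lone KD mouse. There Gria4, Grm3 (-0.75) and Cacng8 had the other sign, Gria2, Gria3 and Grm7 kept theirs, and Gria1 was at 0.56.

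Pvalb, a marker of fast-spiking inhibitory neurons, was at 18.4 CPM in KD replicate 3 and 65.0 to 110.5 CPM in the others. The sums of 5 oligodendrocyte markers were 925 CPM in CD replicate 3, 949 CPM in KD replicate 3, 1871 CPM in KD replicate 2 and 2956 to 3687 CPM in the others, with 0 of 5 higher in the KD mean and none at 0. The part of these markers in the values of the 40 genes was not tested.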
